A study of Mus musculus with 52 samples.

Results

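The Cep genes are the mouse genes whose symbol is Cep (for centrosomal protein) followed by a number. Every symbol of that form in the count files was taken as a member, which gave 36 of 24421 symbols, and 35 of them are described. Of these 35, 34 are protein-coding and 1, Cep83os, is a non-coding RNA that starts beside Cep83 on the other strand. The name says where the proteins were found and not that they are related in sequence. The members lay on 15 chromosomes, with 7 on chromosome 9 and 5 on chromosome 10. All 35 passed the filter on low counts, which kept 13994 genes. Genes now named Cep43 and Cep20 are listed in the files under the older symbols Fgfr1op and Fopnl and are therefore not members.

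RNA came from Cilia-APEX-IMCD3 cells, a mouse inner medullary collecting duct line, in which a cytosine base editor (BE4-Gam) had been used to write patient alleles of the dynein-2 intermediate chains Wdr34 and Wdr60. Every clone grew from 1 sorted cell and was sequenced as 4 technical replicate libraries, so the clone was the sample here and the libraries of a clone were summed. Non-ciliated cells comprised the homozygous mutant clones Wdr34 and Wdr60 and the 4 control clones AB, 1, 2 and 3. Ciliated cells comprised the homozygous mutants Wdr34 clone 1, Wdr34 clone 3 and Wdr60 and the 4 control clones D8, H12, A4 and G7. According to the methods, control clones had received the editor and a guide vector without a target sequence. The sample titles begin with AB for clone AB and with BE for clones 1, 2 and 3, and the paper does not explain these prefixes. The alleles edited in the study are p.Arg183Trp and p.Gly394Ser of Wdr34 and p.Ala911Val of Wdr60, but the sample labels give no allele for any clone and tie no clone of one state to a clone of the other, so the clones of the states were fitted as unrelated. The methods of the paper count 4 control clones and 3 mutant clones, so the same clone may occur in both states. Each clone is counted once per state here, and the fits take no account of such a pairing. According to the paper's text, the p.Gly394Ser clone was made too late for the non-ciliated RNA and also carried an unplanned heterozygous missense change in the neighbouring codon, which leaves p.Arg183Trp as the allele of the non-ciliated Wdr34 clone. Ciliated cells were starved of serum according to the methods. On this the labels differ, since they give 10% serum for all samples. Non-ciliated cells were sequenced earlier, so ciliation, serum and sequencing time cannot be told apart. With 2 to 4 clones in a group, p-values weigh a difference against the spread between these clones.

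A centriole is a short barrel of microtubules, and a pair of them with the surrounding protein matrix forms the centrosome, which organises microtubules and, in mitosis, the spindle poles. A new centriole is built beside each old one once per cell cycle. When the cell leaves the cycle, the older centriole docks at the plasma membrane through its distal appendages and becomes the basal body, from which the primary cilium grows. Cep proteins act at each of these steps, and mutations in several of their genes cause ciliopathies of kidney, retina and skeleton or small brain size.

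Library totals were 14816218 to 28084979 counts, and clone sums were 64841603 to 77304019. Values below are CPM (counts-per-million) of the clone sums, with library sizes scaled by TMM, unless a length is named. Wdr34 was measured at 21.7 to 49.7 CPM and Wdr60 at 20.4 to 31.0 CPM over the 13 clones. The lowest Wdr34 level was that of ciliated Wdr34 clone 3. Ciliated controls had 32.5 to 43.8 CPM of Wdr34, and ciliated Wdr34 clone 1 and Wdr60 had 46.4 and 49.7 CPM. A single-base edit need not change either level, and the counts hold no allele. Of the collecting duct markers, Pax2, Pax8 and Hoxb7 were present in every clone (lowest 80.1, 150 and 33.9 CPM). By contrast, Aqp2, Aqp3, Aqp4 and Gata3 reached at most 0.0152, 1.08, 0.240 and 2.88 CPM. Krt8, Krt18, Cdh1 and Epcam ranged from 26.6 to 945, 68.1 to 1232, 4.26 to 649 and 2.89 to 836 CPM over the clones. Control clones 2 and G7 stood apart from the other controls, with Cdh1 at 4.26 and 13.7 CPM against 256 to 649 CPM, and with the highest Lrp2, a proximal tubule marker, at 272 and 423 CPM. Calls between states, counts of clones that do not overlap, mutant effects and ranges among controls are therefore given with and without both. Among the mutants, ciliated Wdr34 clone 3 had Krt8 at 76.5, Krt18 at 148, Lrp2 at 61.9 and Cdh1 at 301 CPM. In ciliated Wdr34 clone 1 and Wdr60, Krt8 stood at 541 and 559, Krt18 at 772 and 727 and Lrp2 at 13.9 and 16.4 CPM.

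Cep genes made up 0.185 to 0.208% of all counts of a clone, and 33 of the 35 averaged over 10 CPM. Divided by the exon length of each gene, the mean over the 13 clones was 0.227 to 48.3 CPM per kb, with a median of 4.62. On this per-length scale the highest level was that of Cep170b, a paralogue of the subdistal appendage protein Cep170, at 48.3 CPM per kb, followed by the abscission protein Cep55 at 35.7 and by Cep57, a protein of the inner centrosome matrix, at 20.3. The lowest levels per kb were those of Cep126, at 0.227, and Cep85l, a paralogue of Cep85, at 0.281. Over the members, the median coefficient of variation was 7.83% between libraries of a clone, 18.2% between ciliated control clones and 16.6% between non-ciliated control clones. The spread between clones was thus larger than that between libraries, for 31 of 35 members in ciliated and 29 of 35 in non-ciliated controls.

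**Figure D1:**
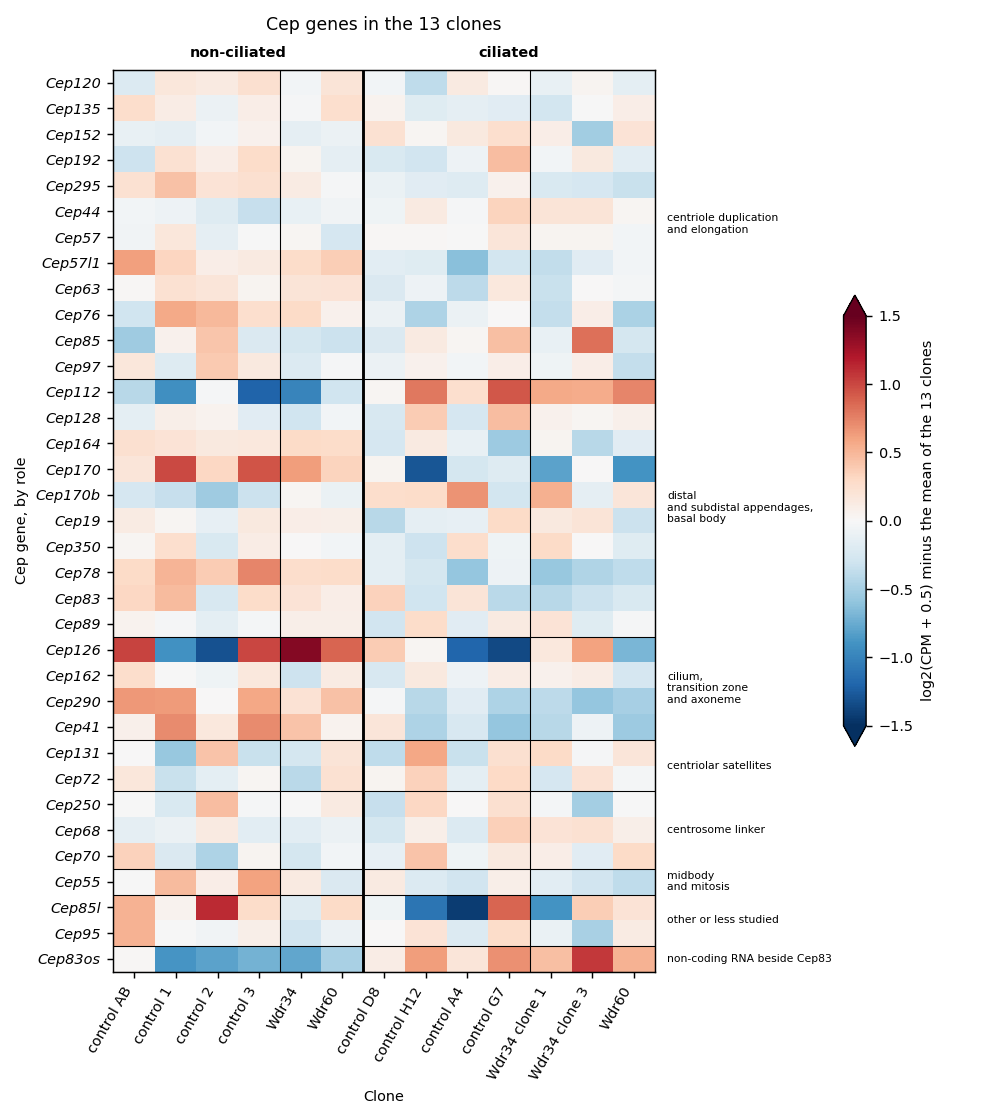
Level of each of the 35 Cep genes (rows, by role) in each of the 13 clones (columns, by state and genotype), as log2(CPM + 0.5) minus the mean of the gene over the 13 clones; red is above and blue below that mean. Cep112 and Cep83os are mostly blue in non-ciliated and red in ciliated clones, Cep78, Cep290 and Cep170 the reverse, and Cep126 and Cep85l differ widely within each group.

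Ciliated control clones were first compared with non-ciliated control clones, to ask how the Cep genes differ between the states in which the mutants were later tested. In ciliated clones 3 members were higher, namely Cep83os, Cep112 and Cep170b, and 6 were lower, namely Cep78, Cep290, Cep57l1, Cep295, Cep170 and Cep41. Among all 13994 genes tested, 8.98% were called higher and 9.46% lower, by a limit of 0.05 on the p of edgeR's quasi-likelihood test after Benjamini-Hochberg (BH) adjustment. The 3 higher members of 35 are near that background, and the 6 lower members are above it, without a test of the difference. The median log2 fold change was -0.10 over the members and 0.02 over all genes. Cep genes with a role in the cilium itself (Cep290 and Cep41, of 4 in that group) were among the lower and not among the higher members.

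Cep78, a centriole protein that restrains the cap protein Ccp110 at the mother centriole, had the smallest p. It was measured at 36.0, 42.0, 38.5 and 49.4 CPM in the non-ciliated control clones AB, 1, 2 and 3. In the ciliated control clones D8, H12, A4 and G7 it stood at 26.6, 24.5, 19.5 and 28.0 CPM. Every ciliated control was below every non-ciliated one, and 21.5% of all genes tested had clone values that did not overlap between these groups. The log2 fold change was -0.75 ± 0.14 (SE), with an edgeR BH-adjusted p of 0.00603.

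Cep290, which bridges microtubules and membrane in the transition zone at the base of the cilium, was lower by the same amount. Non-ciliated controls AB, 1, 2 and 3 had 65.4, 64.6, 41.5 and 62.3 CPM. Ciliated controls D8, H12, A4 and G7 had 41.0, 30.9, 36.8 and 29.8 CPM. Clone 2, at 41.5, came close to the highest ciliated clone but did not overlap with it. Its log2 fold change was -0.75 ± 0.16, with an edgeR BH-adjusted p of 0.0102. The 4930430F08Rik gene on the opposite strand shares 7.58% of the exon bases of Cep290, and the strand setting of the counting is not stated.

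Cep83os was higher in ciliated cells. The non-ciliated controls AB, 1, 2 and 3 stood at 9.73, 4.96, 5.30 and 5.70 CPM, and the ciliated controls D8, H12, A4 and G7 at 10.4, 15.1, 11.0 and 15.7 CPM. The groups did not overlap, although AB lay close to D8. The log2 fold change was 1.03 ± 0.26, with an edgeR BH-adjusted p of 0.0205. Its neighbour Cep83, which anchors the distal appendages and is needed for docking of the basal body, had 68.7, 77.1, 46.5 and 66.9 CPM in the same non-ciliated clones and 70.1, 44.6, 63.2 and 41.6 CPM in the ciliated ones. These ranges overlapped, and Cep83 was not called (log2 fold change -0.24 ± 0.19, BH-adjusted p = 0.401 in edgeR). The genes are annotated on opposite strands with a gap of 10 bases between their starts, so they share no annotated exon.

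Cep112, a coiled-coil protein of the centrosome, had the largest fold among the members called. Non-ciliated controls AB, 1, 2 and 3 had 13.5, 9.34, 18 and 7.59 CPM, and ciliated controls D8, H12, A4 and G7 had 18.5, 31.7, 21.7 and 35.2 CPM. Clone 2 was the highest non-ciliated and D8 the lowest ciliated clone, and these nearly met. The log2 fold change was 1.15 ± 0.30, with an edgeR BH-adjusted p of 0.0218. Cep170b was measured at 315, 295, 260 and 301 CPM in AB, 1, 2 and 3 and at 450, 455, 598 and 309 CPM in D8, H12, A4 and G7. Here the groups overlapped, since G7 lay within the non-ciliated range; the log2 fold change was 0.63 ± 0.19 (BH-adjusted p = 0.0427 in edgeR).

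Cep170 itself, which binds microtubules at the subdistal appendages, went the other way. It stood at 126, 220, 138 and 214 CPM in the non-ciliated controls AB, 1, 2 and 3 and at 114, 45.2, 92.2 and 97.1 CPM in the ciliated controls D8, H12, A4 and G7. H12 was far below the other ciliated clones, and the groups did not overlap. The log2 fold change was -1.0 ± 0.31, with an edgeR BH-adjusted p of 0.0414. The paralogues Cep170 and Cep170b thus both passed the threshold, in opposite directions.

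Among proteins of centriole assembly, Cep57l1, a paralogue of Cep57, had 37.7, 30.7, 26.3 and 26.8 CPM in AB, 1, 2 and 3 and 21.9, 21.6, 15.6 and 20.2 CPM in D8, H12, A4 and G7 (log2 fold change -0.62 ± 0.16, edgeR BH-adjusted p = 0.0210). Cep295, which turns a new centriole into one that can organise microtubules, had 67.2, 78.0, 66.5 and 67.7 CPM against 53.4, 50.9, 50.0 and 60.2 CPM in the same order of clones (log2 fold change -0.38 ± 0.10, edgeR BH-adjusted p = 0.0219). Neither gene overlapped between the states, beside 21.5% of all genes tested that did not overlap. Cep41, which takes part in the glutamylation of ciliary tubulin, had 23.3, 36.4, 24.7 and 36.2 CPM against 25.1, 15.8, 18.5 and 14.6 CPM, and D8 lay within the non-ciliated range (log2 fold change -0.70 ± 0.22, edgeR BH-adjusted p = 0.0461).

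**Figure D2:**
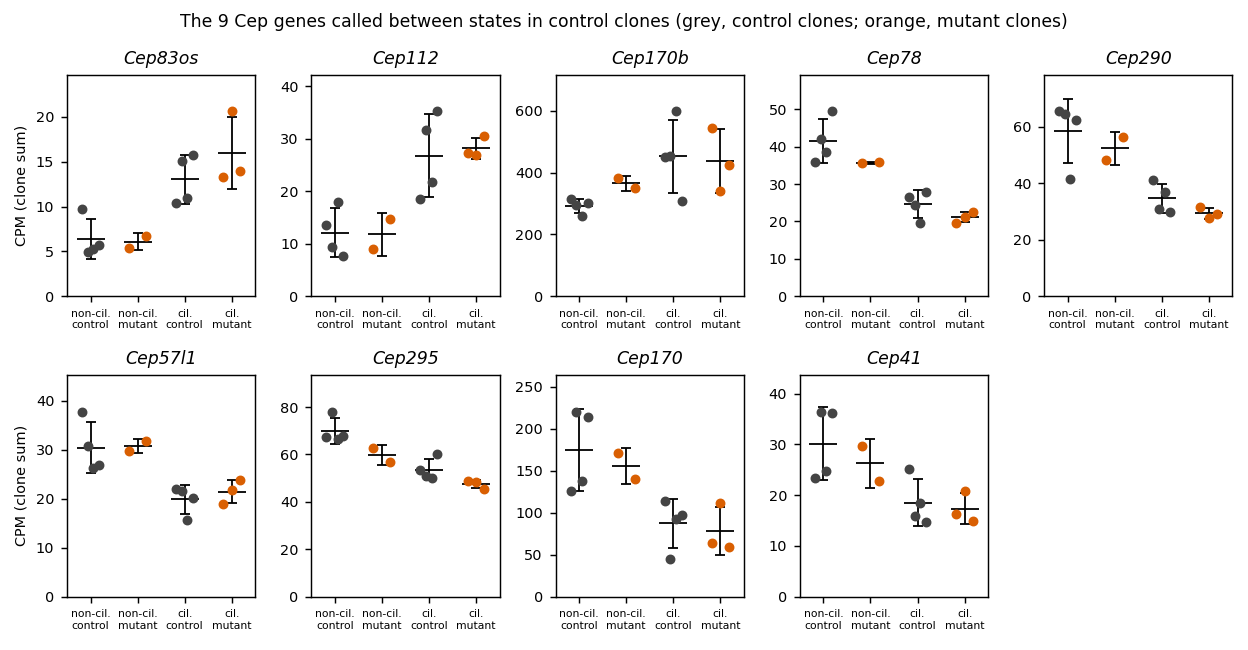
CPM of the clone sums (y axis, from 0) of the 9 Cep genes called between states in control clones, for non-ciliated control (n = 4), non-ciliated mutant (n = 2), ciliated control (n = 4) and ciliated mutant clones (n = 3). Points are clones, and bars are the mean ± SD of the group; Cep83os, Cep112 and Cep170b lie higher in ciliated control clones and the other 6 lower, and in Cep170b and Cep41 the control clones of the states overlap.

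How firmly these calls stood differed by gene. Of 23 alternative analyses of the same comparison, 1 did not call Cep78 and 2 did not call Cep290, whereas 11 did not call Cep170b and 11 did not call Cep41. Leaving out 1 control clone at a time left 0 to 2 members higher and 2 to 6 lower. Without non-ciliated clone 1 the count was 0 higher and 2 lower (Cep78 and Cep290), without clone 3 or without H12 it was 0 and 4, without A4 2 and 3, and without G7 2 and 4. Without both clones that stood apart, 2 and G7, it was 2 higher (Cep112, Cep170b) and 5 lower (Cep78, Cep290, Cep57l1, Cep295, Cep170). With DESeq2 on the same clone sums it was 3 higher and 6 lower.

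The other members did not pass the threshold in the control clones. Nearest to it were Cep164, the distal appendage protein that recruits the kinase Ttbk2, at 34.4 ± 6.77 CPM (SD, n = 4) in ciliated and 44.4 ± 1.43 CPM (n = 4) in non-ciliated controls (edgeR BH-adjusted p = 0.103), and Cep55 at 97.8 ± 14.4 and 126 ± 25.7 CPM (edgeR BH-adjusted p = 0.133). Cep76, which limits centriole reduplication, followed at 54.3 ± 7.45 and 73.7 ± 18.1 CPM (edgeR BH-adjusted p = 0.141). The scaffolds that recruit the duplication kinase Plk4, Cep152 and Cep192, had log2 fold changes of 0.22 ± 0.15 and -0.09 ± 0.18. Cep63, the partner of Cep152, and the cartwheel protein Cep135 had -0.24 ± 0.15 and -0.21 ± 0.12. Cep57 (0.05 ± 0.10), Cep85 (0.15 ± 0.27), the elongation factor Cep120 (-0.15 ± 0.14), Cep97, a partner of Ccp110 at the centriole tip (-0.13 ± 0.16), and Cep44 (0.27 ± 0.13) completed the assembly group, in which 2 of 12 members were called, both lower, beside 18.4% of all genes called in either direction.

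In the appendage and basal body group, in which 4 of 10 members were called (2 higher, 2 lower, beside 8.98% and 9.46% of all genes), the log2 fold changes of the remaining ones were 0.04 ± 0.14 for the distal appendage protein Cep89, 0.17 ± 0.17 for the subdistal appendage protein Cep128, -0.13 ± 0.17 for Cep19 and -0.10 ± 0.15 for Cep350. Cep162, an axoneme protein of the transition zone, had -0.10 ± 0.15. The satellite proteins Cep131 and Cep72 had 0.15 ± 0.26 and 0.22 ± 0.21. For the linker that holds the centrioles together, the values were 0.00 ± 0.19 for Cep250, 0.07 ± 0.14 for Cep68 and 0.16 ± 0.20 for Cep70. Cep95 had -0.07 ± 0.19. None of the linker or satellite members passed the threshold. The 2 rare members had the widest errors, with -1.10 ± 1.37 for Cep126 and -0.85 ± 0.65 for Cep85l.

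Promoters are shown for 4 of the called members, those with the largest fold of the 31 members found in a RefSeq promoter table (GRCm38; Cep120, Cep192, Cep350 and Cep76 were not matched). Each runs from 250 bases before the annotated start to base 50 of the gene, 5′ to 3′, so that members that moved up (Cep112, Cep83os) and down (Cep170, Cep290) can be read side by side. Capitals mark matches, on either strand, to motifs linked to the cell cycle or to ciliary genes: CHR (TTTGAA), the CCAAT box (CCAAT), E2F (GCGGGAA) and the half-site of RFX factors (GTTGCC).
Cep112, chr11:108425016-108425315 (plus strand): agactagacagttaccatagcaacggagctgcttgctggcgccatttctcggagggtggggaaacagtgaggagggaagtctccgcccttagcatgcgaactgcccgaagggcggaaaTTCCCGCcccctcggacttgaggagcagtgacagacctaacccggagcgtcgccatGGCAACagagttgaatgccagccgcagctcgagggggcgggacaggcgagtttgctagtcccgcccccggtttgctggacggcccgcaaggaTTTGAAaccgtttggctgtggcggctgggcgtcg
Cep83os, chr10:94688564-94688863 (minus strand): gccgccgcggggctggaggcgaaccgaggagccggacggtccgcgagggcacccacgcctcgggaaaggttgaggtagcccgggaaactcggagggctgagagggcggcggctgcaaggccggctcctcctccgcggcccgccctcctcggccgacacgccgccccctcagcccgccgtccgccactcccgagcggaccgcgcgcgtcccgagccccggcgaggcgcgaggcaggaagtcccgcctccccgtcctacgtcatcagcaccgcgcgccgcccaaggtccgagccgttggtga
Cep170, chr1:176813904-176814203 (minus strand): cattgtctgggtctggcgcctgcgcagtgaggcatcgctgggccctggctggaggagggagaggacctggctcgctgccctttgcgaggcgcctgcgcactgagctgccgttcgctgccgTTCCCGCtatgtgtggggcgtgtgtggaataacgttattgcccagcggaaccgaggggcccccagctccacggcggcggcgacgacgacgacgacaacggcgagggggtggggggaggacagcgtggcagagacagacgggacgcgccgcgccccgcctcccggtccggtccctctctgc
Cep290, chr10:100487332-100487631 (plus strand): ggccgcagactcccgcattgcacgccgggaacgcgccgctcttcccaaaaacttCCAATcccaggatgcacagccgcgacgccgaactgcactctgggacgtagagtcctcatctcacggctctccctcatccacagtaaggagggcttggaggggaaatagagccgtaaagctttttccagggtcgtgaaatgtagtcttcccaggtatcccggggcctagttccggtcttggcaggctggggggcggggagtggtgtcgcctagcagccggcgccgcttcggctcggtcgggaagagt

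The Cep112 window held an E2F match starting at base -132, an RFX match at -76 and a CHR match at 17, counted from the annotated start. In the Cep170 window there was an E2F match at -130, and in that of Cep290 a CCAAT match at -196. The Cep83os window held none of these letters. It has 276 bases in common with that of Cep83, on the other strand, and a GC content of 76.7%, against 62.3% for Cep112 and Cep290 and 70.7% for Cep170. Of the 31 member promoters, 9 held the E2F letters, 15 the CCAAT box, 8 the CHR and 8 the RFX half-site, while of 27025 promoters in the table the shares were 4.67%, 38.0%, 18.2% and 12.7%. These are counts of letters and not of bound sites.

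The other centrosome genes were described from lists of non-Cep members, whose counts stand beside 8.98% of all genes called higher and 9.46% lower. Of 14 genes of centriole duplication, 3 were lower and 1 was higher in ciliated control clones (median log2 fold change -0.22). The lower ones were Ccp110, which caps the centriole (-0.57 ± 0.10), and the centriole wall proteins Poc1a (-0.53 ± 0.13) and Poc1b (-0.55 ± 0.16), and the higher one was Ofd1 (0.38 ± 0.11). Of 8 genes of the pericentriolar material, Tubg1, gamma-tubulin (-0.49 ± 0.12), and its recruiter Nedd1 (-0.43 ± 0.11) were lower, and Tubgcp2, a subunit of the same ring complex, was higher (0.55 ± 0.12; list median 0.22). Tubgcp3 was not called (0.28 ± 0.11). Of 11 genes of the appendages and linker, 1 was called, the linker kinase Nek2, which was higher (0.44 ± 0.12; list median 0.11). The next smallest p-values in that list belonged to Cntln (0.78 ± 0.31), Fbf1 (-0.34 ± 0.16) and Sclt1 (0.41 ± 0.27), which were not called. With lists of 8 to 14 genes, 1 call is about what these shares of all genes give.

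Markers of mitosis moved with the state as well. Of 14 such genes 7 were lower and 0 higher in ciliated control clones (median log2 fold change -0.35), beside 9.46% and 8.98% of all genes, among them Bub1 (-0.94 ± 0.13), Aurka (-0.79 ± 0.12), Plk1 (-0.66 ± 0.12) and Kif23 (-0.66 ± 0.15). The summed level of the list was 2685 to 3832 CPM in ciliated and 3647 to 4408 CPM in non-ciliated control clones, so these ranges overlapped. Mki67 and Cdk1 were not called (-0.07 ± 0.18 and -0.06 ± 0.14). In bulk RNA, fewer dividing cells and less RNA per cell cannot be told apart, and the part of cell division in the Cep differences was not tested.

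The same question was asked in the mutant clones, which share no sample with the controls. Ciliated mutants (3 clones) against non-ciliated mutants (2 clones) gave 1 member higher, Cep83os, and 2 lower, Cep78 and Cep290, where 5.32% of all genes were called higher and 7.53% lower. Cep78 had 35.5 and 35.8 CPM in non-ciliated Wdr34 and Wdr60 and 19.7, 21.3 and 22.5 CPM in ciliated Wdr34 clone 1, Wdr34 clone 3 and Wdr60 (log2 fold change -0.75 ± 0.18, edgeR BH-adjusted p = 0.0221). Cep290 had 48.1 and 56.5 CPM against 31.5, 27.6 and 29.1 CPM (-0.83 ± 0.21, edgeR BH-adjusted p = 0.0252). For Cep83os the values were 5.40 and 6.74 against 13.3, 20.6 and 14.0 CPM (1.39 ± 0.35, edgeR BH-adjusted p = 0.0261). In none of these 3 genes did the mutant clones of the states overlap, but neither did they in 52.2% of all genes tested.

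Next by p in the mutants were Cep112, at 8.91 and 14.7 CPM in non-ciliated and 27.2, 26.9 and 30.5 CPM in ciliated clones (1.26 ± 0.39, edgeR BH-adjusted p = 0.0566), and Cep295 (-0.33 ± 0.13, edgeR BH-adjusted p = 0.101). All 9 members called in the control clones had the same sign in the mutant clones, as had 28 of all 35 members (80.0%) and 84.9% of all genes tested. The 84.9% covers genes called or not, so it is no like background for the 9 called members. Leaving out 1 mutant clone left 0 or 1 member higher and 0 or 1 lower. The count fell to 0 and 0 without non-ciliated Wdr34 or without non-ciliated Wdr60, each of which leaves 1 non-ciliated mutant clone, to 1 and 0 without ciliated Wdr34 clone 1, to 0 and 1 without clone 3 and to 1 and 1 without ciliated Wdr60. Of the non-Cep lists, Ccp110 (-0.64 ± 0.13), Poc1a (-0.60 ± 0.17), Tubgcp2 (0.52 ± 0.15) and the mitosis markers Aurka, Bub1, Ccnb1 and Plk1 were called in the mutants, each with the direction seen in the controls.

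Clone values that do not overlap between groups give a view without a model. Between the control clones of the states this held for 8 members, 2 higher and 6 lower in ciliated cells, beside 21.5% of all genes tested. Cep164 was the member among them that the test did not call, and Cep170b and Cep41 were called with overlapping clones. Without clones 2 and G7, which leaves 3 controls in each state, it held for 13 members, 3 higher and 10 lower, beside 42.3% of all genes. Between the mutant clones it held for 16 members, 5 higher and 11 lower, beside 52.2% of all genes, with 2 clones set against 3. The 16 of 35 members are thus near the background.

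Among other questions, the study asked by RNA sequencing how the mutations affect gene expression. It reported differentially expressed genes in both states with DESeq2, and its methods do not state whether libraries or clones were the samples. In ciliated cells it set 3 mutant clones against 3 control clones, which it does not name. Here all 4 ciliated controls were used. For the Cep genes, no member passed the threshold between mutant and control clones in either state. In ciliated cells 0 of 35 members were called and 0 had an unadjusted p under 0.05 (edgeR), beside 0% of all genes called and 272 of 13994 genes at an unadjusted p under 0.05. In non-ciliated cells it was also 0 and 0 of 35, beside 0% of all genes called and 516 of 13994 at an unadjusted p under 0.05. With DESeq2 on clone sums 0 members were called in either state. The median log2 fold change of the members was -0.02 in ciliated and -0.08 in non-ciliated cells, where that of all genes was 0.00 in both.

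The 5 members with the smallest p in ciliated cells were Cep295 (log2 fold change -0.17, 95% interval -0.41 to 0.06), Cep83 (-0.31, -0.76 to 0.14), Cep78 (-0.22, -0.55 to 0.11), Cep290 (-0.24, -0.62 to 0.15) and Cep152 (-0.21, -0.56 to 0.14), with edgeR BH-adjusted p of 1.0 for each. Cep295 stood at 48.9, 48.3 and 45.4 CPM in ciliated Wdr34 clone 1, Wdr34 clone 3 and Wdr60, below the 4 controls at 50.0 to 60.2 CPM. It was the single member whose mutant and control clones did not overlap in ciliated cells, beside 2.10% of all genes. In non-ciliated cells the smallest p was again that of Cep295 (-0.23, -0.49 to 0.04), with 62.8 and 56.7 CPM in Wdr34 and Wdr60 and 66.5 to 78.0 CPM in the controls. Cep55 (-0.34, -0.78 to 0.10), Cep95 (-0.35, -0.86 to 0.16), Cep170b (0.32, -0.19 to 0.83) and Cep97 (-0.26, -0.70 to 0.18) followed. There, 6 members did not overlap between mutants and controls (Cep164, Cep170b and Cep89 higher, Cep295, Cep78 and Cep95 lower), beside 14.1% of all genes. Without clones 2 and G7 it was 10 members in non-ciliated cells, beside 22.6% of all genes, and still Cep295 alone in ciliated cells, beside 6.90%.

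Intervals give the size of difference these clones leave room for. For 33 members, all but the rare Cep126 and Cep85l, the 95% interval of the mutant effect lay within 1 log2 unit of 0 in both states, running from -0.88 to 0.89 over the genes in ciliated and from -0.99 to 0.83 in non-ciliated cells. The estimates themselves were -0.31 to 0.29 and -0.35 to 0.32. Setting these 2 genes aside was a choice made after their values were seen. Without control clones 2 and G7 the intervals ran from -0.90 to 1.05 in ciliated and from -1.18 to 0.93 in non-ciliated cells, past 1 log2 unit for Cep83os and Cep170 respectively. In that fit 3 members had an unadjusted p under 0.05 in ciliated cells (edgeR), namely Cep83 (-0.42, -0.77 to -0.06), Cep68 (0.30, 0.04 to 0.56) and Cep290 (-0.30, -0.59 to -0.01), beside 5.68% of 13898 genes. None was called (BH-adjusted p = 0.818 for each in edgeR), and in non-ciliated cells 0 members had an unadjusted p under 0.05, beside 4.23% of genes.

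**Figure D3:**
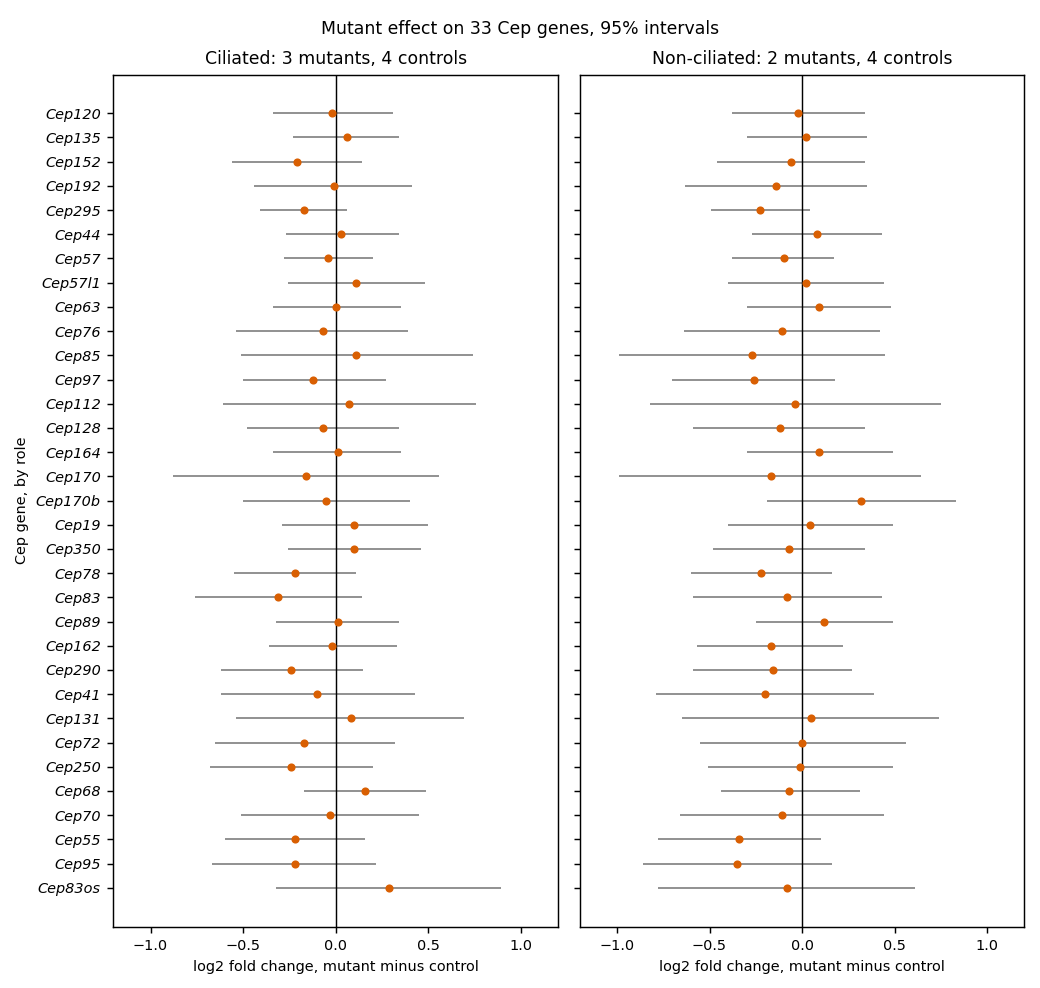
Log2 fold change of mutant over control clones (x axis) with its 95% interval for 33 Cep genes (y axis, by role), in ciliated (left) and non-ciliated cells (right); Cep126 and Cep85l are not drawn. Every interval includes 0, and the estimates run from -0.31 to 0.29 in ciliated and from -0.35 to 0.32 in non-ciliated cells.

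No member passed the threshold for a difference of the mutant effect between the states (interaction, 0 of 35 called, 0 at an unadjusted p under 0.05, beside 0% of all genes called and 136 of 13994 at an unadjusted p under 0.05, edgeR). The smallest p-values were those of Cep170b (difference of log2 fold changes -0.37, 95% interval -1.05 to 0.32), Cep68 (0.23, -0.27 to 0.73), Cep85 (0.39, -0.56 to 1.34), Cep83os (0.37, -0.56 to 1.29) and Cep250 (-0.24, -0.90 to 0.43).

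Single mutant clones were then set against the 4 controls of their state, under the assumption that the lone clone varies as the controls do. No member was called in any of the 5 clones. The share of all genes called was 0% in non-ciliated Wdr34, 0% in non-ciliated Wdr60, 0% in ciliated Wdr34 clone 1, 0.00715% (1 gene) in ciliated Wdr34 clone 3 and 0% in ciliated Wdr60. The 1 member with an unadjusted p under 0.05 was Cep152 in ciliated Wdr34 clone 3, at 23.9 CPM against 40.6, 35.2, 38.3 and 41.2 CPM in the controls D8, H12, A4 and G7 and 36.9 and 39.9 CPM in the other ciliated mutants. Its log2 fold change was -0.70 ± 0.19 (BH-adjusted p = 0.660 in edgeR). The smallest p-values elsewhere were those of Cep350 in ciliated Wdr34 clone 1 (0.34 ± 0.25), Cep97 in ciliated Wdr60 (-0.39 ± 0.28), Cep162 in non-ciliated Wdr34 (-0.41 ± 0.23) and Cep55 in non-ciliated Wdr60 (-0.53 ± 0.29).

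With the 52 libraries as the samples, a test that counts the technical replicates of a clone as separate samples, more was called. Mutants against controls then gave 0 members in ciliated cells, beside 6.57% of 12544 genes, and 2 lower members in non-ciliated cells, Cep55 and Cep95, beside 10.5%. Single clones gave 2 in non-ciliated Wdr34 (Cep95, Cep97; 11.5% of genes), 2 in non-ciliated Wdr60 (Cep55, Cep57; 13.8%), 1 in ciliated Wdr34 clone 1 (Cep72; 5.64%) and 1 in ciliated Wdr60 (Cep97; 14.7%). All of these were lower than in the controls. In ciliated Wdr34 clone 3 there were 6, of which Cep85 and Cep83os were higher and Cep152, Cep250, Cep170b and Cep95 lower, beside 26.8% of genes. In each of these comparisons the share of members was below the share of all genes.

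The calls in ciliated Wdr34 clone 3 lay partly on chromosomes whose genes moved as a whole. For each clone the median log2 ratio of all expressed genes of a chromosome to the control clones of its state was taken, and it reached at least 0.2 in size in 19 of 260 pairs of clone and chromosome. In clone 3 it was -0.38 on chromosome 2, which holds Cep152 and Cep250, 0.38 on chromosome 4, which holds Cep85, and 0.23 on chromosome 18, which holds Cep120, Cep76 and Cep192. Member ratios on the same scale were -0.71 for Cep152, -0.63 for Cep250 and 0.74 for Cep85. When the chromosome medians were taken out, as an offset added after the data were seen, the fitted log2 fold change of Cep152 was -0.32 ± 0.16 (BH-adjusted p = 0.999 in edgeR), that of Cep250 -0.22 ± 0.31 and that of Cep85 0.34 ± 0.33. DNA copy number was not measured in these files.

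Other clones showed such chromosomes too. Chromosome 6, with Cep41, was at -0.50 in AB, -0.35 in H12, -0.43 in non-ciliated Wdr60 and -0.37 in ciliated Wdr60, where the ratio of Cep41 was -0.36, -0.11, -0.38 and -0.19. Chromosome 5, with Cep135, was at 0.31 and 0.30 in non-ciliated and ciliated Wdr60, where Cep135 was at 0.15 and 0.25. On chromosome 18, at -0.31 in AB, Cep76 was at -0.67, Cep192 at -0.48 and Cep120 at -0.36. Chromosome 1, with Cep170 and Cep350, was at -0.51 in clone 2, with ratios of -0.32 and -0.30, and at -0.39 in G7, where both genes were at 0.04. Control clones of the states thus resembled each other in places, 2 and G7 on chromosome 1 and AB and H12 on chromosome 6. On chromosome 3 the medians were -0.38 in non-ciliated control clone 3 and -0.29 in D8, and 0.23 in AB and 0.22 in H12. Whether these are the same clones was not tested, and no paired comparison was made, since the labels pair none. Of the 19 member values on such chromosomes, 17 had the sign of the chromosome. The 13 on lowered chromosomes had a median log2 ratio of -0.36 and the 6 on raised ones of 0.22, while the other 436 had a median of -0.01 with quartiles of -0.16 and 0.13. In the comparison of states, the offsets left 3 members higher and 7 lower in control clones, with Cep76 added to the 9 (-0.45, edgeR BH-adjusted p = 0.0364).

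**Figure D4:**
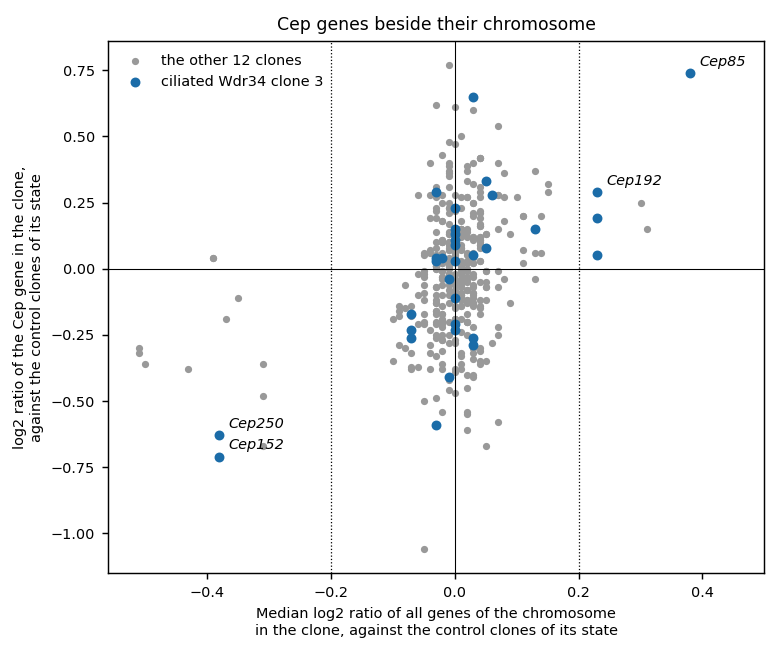
Log2 ratio of each of 33 Cep genes in each of the 13 clones (y axis) beside the median log2 ratio of all expressed genes of its chromosome in that clone (x axis), both against the control clones of the state; dotted lines mark 0.2 in size. In ciliated Wdr34 clone 3 (blue), Cep152 and Cep250 lie at a chromosome median of -0.38 and Cep85 at 0.38.

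The widest differences among control clones lay in a few members, here ranked by the ratio of the highest to the lowest clone among members averaging at least 1 CPM in the controls of the state. In ciliated controls Cep126 was under that level, and its ratio was at least 29.7 (1.16 CPM in D8 against the floor for 0 counts in G7). The ranked ones were Cep85l (0.412 CPM in A4, 3.98 CPM in G7, a ratio of 9.65), Cep170 (2.53), Cep131 (25.3 CPM in D8, 49.6 CPM in H12, 1.96), Cep170b (1.94) and Cep112 (1.91). Among non-ciliated controls Cep126, with 1 count in clone 2, was followed by Cep85l (2.04 CPM in clone 1, 4.83 CPM in clone 2, 2.37), Cep112 (2.37), Cep131 (22.1 CPM in clone 1, 44.8 CPM in clone 2, 2.03) and Cep83os (1.96).

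Part of this width came with clones 2 and G7. Without G7 the ratio in ciliated controls was 4.46 for Cep85l, 1.33 for Cep170b and 1.71 for Cep112, while those of Cep170 and Cep131 stayed at 2.53 and 1.96. Without clone 2 the non-ciliated ratio was 11.7 for Cep126, 1.48 for Cep85l and 1.78 for Cep112, the highest Cep131 level was 33.2 CPM (AB), and the ratio of Cep83os stayed at 1.96. By contrast, the range of Cep57 was 84.1 to 95.6 CPM in ciliated and 77.0 to 94.9 CPM in non-ciliated controls.

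Cep126, a microtubule-binding protein of the centrosome and satellites, was the member that differed most between clones. It had 156, 12, 1 and 155 counts in the non-ciliated controls AB, 1, 2 and 3 (2.08, 0.179, 0.0137 and 2.05 CPM) and 74, 62, 4 and 0 counts in the ciliated controls D8, H12, A4 and G7. A count of 0 in G7 allows up to 3 counts, or 0.0391 CPM, for counting error alone. The mutants lay between 22 and 184 counts, at 2.82 and 1.84 CPM in non-ciliated Wdr34 and Wdr60 and at 0.918, 1.43 and 0.292 CPM in ciliated Wdr34 clone 1, Wdr34 clone 3 and Wdr60. Thus each state held 2 control clones with at most 12 counts and 2 with at least 62. Foxj1, a transcription factor of motile cilia, was lowest in clones 2 and G7 (12.5 and 5.35 CPM) but stood at 46.2 and 75.8 CPM in clones 1 and A4, and its part in the level of Cep126 was not tested.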

How the data were processed

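The deposited files hold raw counts per gene symbol for 52 libraries, which the authors made with Rsubread in R 3.4.4, aligning read pairs to the mouse build GRCm38 (mm10) and counting with featureCounts, without normalization. Strand and the handling of multi-mapping reads are not given in the sources used here, so overlapping genes (5 members share exon bases with a listed gene) are uncertain. The authors tested with DESeq2 1.18.1. 1 gene matched by the rule is not reported here, and counts of members leave it out. Members and gene lists were chosen with earlier results of these data known.

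Here the 4 libraries of a clone were summed, since the study calls them technical replicates, and 13 clones were fitted in 4 groups (state by genotype) with edgeR 4.0.16 in R 4.3.3: filterByExpr, TMM, glmQLFit and glmQLFTest (2-sided), with BH adjustment over 13994 genes. A gene was called at an adjusted p under 0.05. Single mutant clones were fitted as groups of their own. The fits were tested on simulated data. Of 78 pairs of libraries compared, 0 were identical. Alternatives included libraries as samples, a replicate block, limma 3.58.1 (voomLmFit), DESeq2 1.42.0, RLE size factors, other filters, separate fits, leaving out clones or replicates, and 2 added after the data were seen (chromosome medians as offsets, controls 2 and G7 left out). Named were all members called, otherwise the 5 with the smallest p, the 5 members with the widest control clones in each state, and up to 4 genes of each list with the smallest p. Lengths are exon unions of GENCODE vM21; positions and promoters are RefSeq's (GRCm38), matched by symbol for 35 and 31 members. Intervals cover the spread between clones, and floors counting error only.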

Additional observations from a re-analysis of the deposited data

Results flagged for a closer look

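Within the 4 control clones of each state, 1 clone stood far from the other 3 in 4 of 70 groups of member values, and chance alone flags about 5% of such groups. Cep57 stood at 95.6 CPM in ciliated G7, where the other ciliated controls had 84.1 to 85.3 CPM. Cep290 stood at 41.5 CPM in non-ciliated clone 2, below the other non-ciliated controls at 62.3 to 65.4 CPM, so that this clone came nearest to the ciliated level. For Cep295 it was non-ciliated clone 1, at 78.0 CPM against 66.5 to 67.7 CPM. Cep83os had 9.73 CPM in non-ciliated AB and 4.96 to 5.70 CPM in the other 3, so that AB came nearest to the ciliated clones. The chromosomes of these members had medians of -0.01 to 0.04 in the clones named.

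In 2 of 13 clones 1 library was far larger than the other 3. Library 4 of ciliated G7 had 28084979 counts where the others had 16052187 to 16549441, and library 2 of non-ciliated Wdr34 had 20505629 where the others had 16442600 to 17109138.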

How the results depend on the processing

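In 658 of 659 alternative values of the 30 fold changes named, the sign stayed as reported. The exception was the Cep85 interaction without ciliated Wdr34 clone 3 (-0.03, and up to 0.60 without other clones). Counts of members called moved more, here given as higher and lower. For states in control clones (3 and 6), libraries as samples gave 6 and 12 and separate fits 1 and 2. Asking there for a log2 fold change past 1 in size left Cep112 (1.15) and Cep83os (1.03) higher and 1 lower. Leaving out a clone gave 0 to 2 and 2 to 6, and a replicate number 2 to 3 and 4 to 6. For mutant clones (1 and 2), libraries gave 5 and 11, voomLmFit 2 and 1, DESeq2, the 10-count filter, separate fits and the fit without clones 2 and G7 each 2 higher, offsets 2 and 3, and the fold limit 0 lower. Under the fold limit Cep83os (1.39) stayed higher. Leaving out a clone gave 0 to 1 and 0 to 1, and a replicate number 1 to 1 and 1 to 2. Mutants against controls had 0 called except with libraries in non-ciliated cells (2 lower). Single clones had 0 called except with libraries (2 in each non-ciliated clone, 1 in ciliated Wdr34 clone 1, 6 in clone 3 and 1 in ciliated Wdr60) and, in clone 3, with voomLmFit (1) and DESeq2 (1). The cause was not tested, but fits on libraries count technical replicates as samples and leave-one-out fits have fewer clones.

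Replicate numbers do not pair libraries across clones: of 312 same-number pairs 48 correlated above 0.1 (median r of deviations -0.00422). Adding the replicate number as a block to the library fit gave 6 higher and 12 lower between states in controls, 5 and 11 in mutants, 2 lower for non-ciliated mutants, and in single clones 1 in each non-ciliated mutant, 0 in ciliated Wdr34 clone 1, 6 in clone 3 and 1 in ciliated Wdr60. Groups of 2 to 4 clones, and 0 to 184 counts for Cep126, limit what could be detected.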
